A study of Homo sapiens with 9 samples.

Results

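The genes described here are 42 genes of the G2 phase and of mitosis, taken from a list of named genes and matched to the deposited tables by Ensembl identifier and symbol. All 42 were in all 9 tables, among 26636 genes that the tables share, and all 42 were among the 13014 genes tested. The study sequenced RNA from cultures labelled BT549, an established mesenchymal-type breast cancer cell line, after transfection with one of 3 siRNAs. The control siRNA (siNC, genotype WT) had 3 libraries, siWFDC21P-1 had 3 and siWFDC21P-2 had 3, and both of the latter are labelled as knockdowns of WFDC21P, a long non-coding RNA annotated as a pseudogene. Cells received 5 µl of a 10 µM siRNA stock and were harvested 48 h after transfection. The library names of siWFDC21P-2 replicates 1 to 3 end in si2, si3 and si4, numbers the labels do not explain, and the libraries are treated as replicates because their titles say so. All 9 libraries share the cell line label, the medium with insulin and serum, and the transfection itself, and the transfection is transient. The question of the design, as far as its labels give it, is what the loss of WFDC21P does to gene expression in these cells.

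Cells enter mitosis when cyclin B binds and activates CDK1, which the CDC25 phosphatases release from inhibition. Kinases of the Polo, Aurora, BUB and NEK families then drive spindle formation, the kinetochore ties chromosomes to microtubules, and the spindle checkpoint holds back the anaphase promoting complex until every chromosome is attached. Most of these genes are transcribed in late S, G2 and M phase under the MuvB complex with B-MYB and FOXM1, through CHR elements and CCAAT boxes in their promoters, and they are repressed by the DREAM complex in quiescent cells. Their summed RNA level in a culture is widely used as a readout of the share of dividing cells. In bulk RNA, more cells in G2 and M and more RNA per cell cannot be told apart.

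The promoters of 6 of the genes are shown with the 2 elements counted over the set below. CCNB2, PLK1 and CDC20 hold both in the window shown, and CCNB1, CENPF and BUB1 hold CCAAT alone. Each line is the 160 bases that end at the base before the RefSeq transcription start, 5′ to 3′ on the strand of the gene, in the build GRCh38.p14. Capitals mark TTTGAA, the core of the CHR element, and CCAAT, each on either strand, so that TTCAAA and ATTGG are the same motifs on the opposite strand. CCNB2 (chr15:59104986-59105145 on the plus strand) and CCNB1 (chr5:69166990-69167149 on the plus strand) encode B-type cyclins, PLK1 (chr16:23678729-23678888 on the plus strand) the Polo kinase, CDC20 (chr1:43358821-43358980 on the plus strand) the coactivator of the anaphase promoting complex, CENPF (chr1:214603035-214603194 on the plus strand) a kinetochore protein and BUB1 (chr2:110678064-110678223 on the minus strand) a checkpoint kinase.
CCNB2: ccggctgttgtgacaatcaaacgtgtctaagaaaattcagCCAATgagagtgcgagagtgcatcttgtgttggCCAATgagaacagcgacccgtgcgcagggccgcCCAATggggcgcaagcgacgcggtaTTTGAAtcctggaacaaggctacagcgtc
CCNB1: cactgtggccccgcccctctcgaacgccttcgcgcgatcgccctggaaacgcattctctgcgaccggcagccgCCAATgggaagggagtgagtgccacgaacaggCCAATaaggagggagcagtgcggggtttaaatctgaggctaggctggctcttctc
PLK1: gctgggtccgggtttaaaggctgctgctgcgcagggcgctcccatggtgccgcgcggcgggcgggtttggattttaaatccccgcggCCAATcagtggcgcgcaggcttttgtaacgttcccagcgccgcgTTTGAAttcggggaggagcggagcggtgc
CDC20: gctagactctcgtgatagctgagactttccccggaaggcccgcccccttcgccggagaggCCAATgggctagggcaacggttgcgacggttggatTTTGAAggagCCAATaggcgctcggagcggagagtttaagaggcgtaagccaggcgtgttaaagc
CENPF: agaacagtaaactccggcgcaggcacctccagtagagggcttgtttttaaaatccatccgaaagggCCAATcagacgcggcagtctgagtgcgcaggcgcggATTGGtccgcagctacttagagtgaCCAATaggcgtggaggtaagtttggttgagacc
BUB1: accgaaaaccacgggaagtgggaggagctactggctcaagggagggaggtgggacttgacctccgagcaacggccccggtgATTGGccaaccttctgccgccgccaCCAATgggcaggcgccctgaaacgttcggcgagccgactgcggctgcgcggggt
In the CCNB2 window the 3 CCAAT motifs began 120, 87 and 54 bases before the start, 33 bases apart each time, and TTTGAA began 29 bases before it. PLK1 had 1 CCAAT at 73 bases and TTTGAA at 29, the same distance as in CCNB2. CDC20 had CCAAT at 100 and 55 bases and TTTGAA at 65, between them. CCNB1 had CCAAT at 87 and 55, 32 bases apart, and no TTTGAA in the window shown. BUB1 (79 and 54) and CENPF (94, 58 and 33) likewise had only CCAAT motifs. The promoters of CDK1, AURKB and TOP2A had also been chosen for display and are left out. In a window of the same length, CDK1 and AURKB had CCAAT alone, at 150 and 153 bases. In that window TOP2A had CCAAT at 160, 93 and 53 bases and TTTGAA at 151. A TTTGAA of CDK1 began at 161 bases, just outside the window, so CDK1 is counted with both motifs in the longer window below.

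RefSeq promoters were matched for 35 of the 42 genes, and in the 250 bases before the start 27 of 35 (77.1%) held CCAAT on either strand. Of all 27305 promoters in the same table, 33.0% held it. TTTGAA was in 18 of 35 (51.4%) against 13.6% of all promoters, at least 2 CCAAT motifs in 18 (51.4%) against 10.0%, and both kinds of motif in 16 (45.7%) against 4.85%. The other mitosis genes, a list of kinetochore, cohesin, condensin, spindle, cytokinesis and entry genes, lay between, with TTTGAA in 30 of 111 (27.0%) and both motifs in 21 (18.9%). The motifs can overlap at their ends: in CDCA8 and MKI67 a TTTGAA match shared 1 letter with a CCAAT match, and in HMMR and PTTG1 CCAAT matches on opposite strands shared 2. A match describes the letters only. The 18 genes with TTTGAA had median fitted log2 changes of 0.49 (siWFDC21P-1) and 0.63 (siWFDC21P-2). Of these 18, 9 were above their control in all 6 knockdown libraries, as were 10.8% of all tested genes. The 17 without TTTGAA had medians of 0.48 and 0.60, and 10 were above in all 6. The 27 with CCAAT had medians of 0.49 and 0.64, with 16 above in all 6, and the 8 without it had 0.40 and 0.48, with 3 above in all 6. The medians thus lay close together for TTTGAA and further apart for CCAAT, and neither difference was tested.

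The libraries did not form one series of alike cultures, and this bears on every comparison below. Average-linkage clustering on genes outside the lists used here put them into 3 sets of expression background (r of 0.928 to 0.986 within sets and 0.662 to 0.745 between them). Set 1 holds siNC replicate 1 with siWFDC21P-1 replicates 1 and 2, set 2 holds siNC replicate 2 with siWFDC21P-1 replicate 3, and set 3 holds siNC replicate 3 with all of siWFDC21P-2. The sets come from the values and are not in the labels, and each has 1 control. VIM encodes vimentin, the filament protein of mesenchymal cells. In FPKM, fragments scaled to transcript length and to the reads of the library, it ranged from 38.5 to 41.0 in set 1 and from 162 to 310 in set 3, but reached only 0.517 and 0.699 in set 2. There EPCAM, an epithelial adhesion molecule, was at 209 and 228 FPKM, against at most 0.0731 in all other libraries. Of the other mesenchymal markers, the transcription factors ZEB1 and SNAI2 were at most 0.0735 FPKM in set 2, while FN1, which encodes fibronectin, was at 11.2 and 5.91 there against 3.71 and 4.56 in the controls of sets 1 and 3. CDH2, which encodes N-cadherin, was at 0 in set 2, at most 0.00698 in set 1 and between 14.7 and 18.1 in set 3, and the epithelial keratin KRT8 ran from 93.4 to 232 in set 1. Set 2 thus had 4 of the 5 mesenchymal markers near 0, and set 1 also went against the cell line label in CDH2 and KRT8. The main counts, medians and calls of the members are given with and without set 2. Most values of role groups, other gene lists and single genes include it. Since siWFDC21P-2 was sequenced in set 3 alone and siWFDC21P-1 only in the other sets, a difference between the siRNAs and one between the backgrounds cannot be told apart. The reads behind the FPKM numbered 28.1 to 29.7 M in sets 1 and 2 and 16.3 to 17.4 M in set 3.

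WFDC21P, the target, was at 3.08, 0.129 and 6.87 FPKM in siNC replicates 1 to 3. With siWFDC21P-1 it was at 0.0629 and 0.767 in set 1, both under the control of that set, and at 0.227 in set 2, above the library labelled siNC replicate 2. With siWFDC21P-2 it was at 4.13, 3.32 and 2.12, all under siNC replicate 3, and replicate 1 had the smallest reduction.

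The mitotic genes had their highest levels in set 2 and their lowest mostly in the controls of sets 1 and 3. Their median level was 16.3, 33.4 and 14.5 FPKM in siNC replicates 1 to 3. With siWFDC21P-1 it was 29.1, 25.2 and 44.2 FPKM, and with siWFDC21P-2 it was 15.8, 33.0 and 31.5. Every knockdown library lay above the control of its own set, and siWFDC21P-2 replicate 1 did so by the least. Over all members the summed level went from 816 FPKM in siNC replicate 1 to 2165 in siWFDC21P-1 replicate 3. The lowest of the 9 values fell in siNC replicate 1 for 24 members, in siNC replicate 3 for 12 and in siWFDC21P-2 replicate 1 for 6. The highest was in set 2 for 28 members, in set 3 for 10 and in set 1 for 4.

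**Figure D1:**
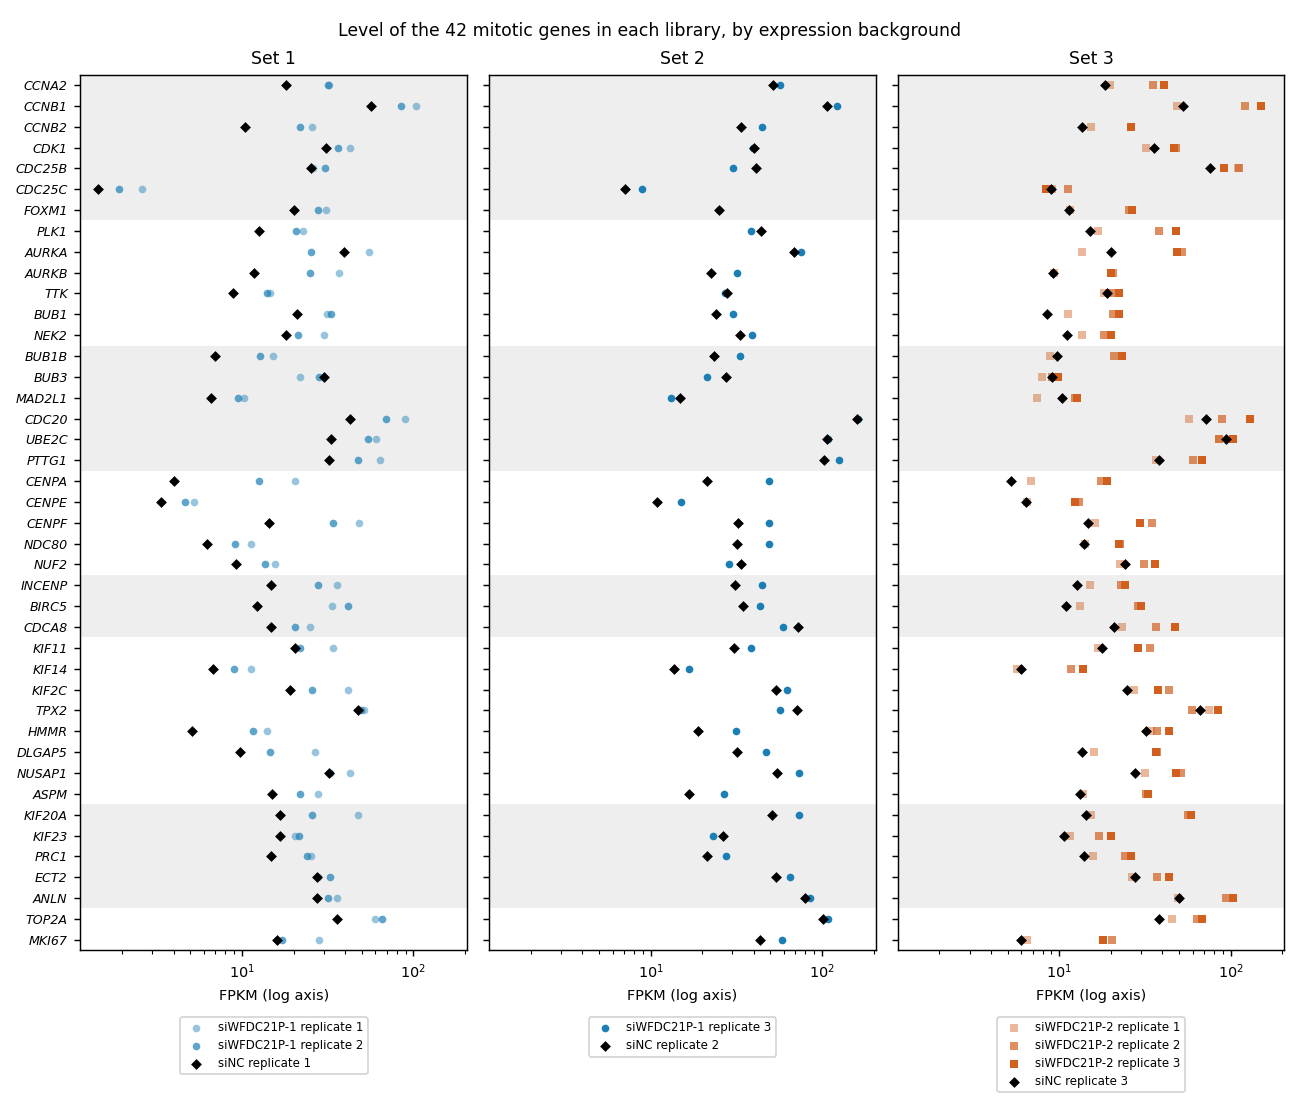
FPKM on a log axis of each of the 42 mitotic genes (vertical axis, grouped by role in shaded bands) in every library, 1 panel per expression set, with the siNC library as a black diamond. In set 1 the diamond is the lowest point for 40 of the genes, and in set 3 siWFDC21P-2 replicate 1 lies close to the diamond.

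The controls alone differed in level between the sets, and with 1 control a set, background and single library cannot be told apart. In siNC replicate 2, 41 of 42 genes were higher than in siNC replicate 1, with a median log2 difference of 1.41 against 0.03 over all tested genes. BUB3, the exception, differed by -0.12, and CDCA8 by 2.2. Between siNC replicates 3 and 1, 25 genes were higher and 17 lower (median 0.15), from -1.62 for BUB3 to 2.43 for HMMR. Each knockdown library was therefore read against the siNC of its own set. All log2 values here and below are differences of log2(FPKM + 1), which understate the change of genes with low values.

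Read that way, most of the mitotic genes were higher in each of the 6 knockdown libraries, with the smallest count and median in siWFDC21P-2 replicate 1. With siWFDC21P-1, 41, 40 and 31 of the 42 were above their control in replicates 1 to 3, with median differences of 0.73, 0.52 and 0.28. With siWFDC21P-2 the counts were 27, 40 and 41 and the medians 0.08, 0.83 and 0.86. Over all tested genes the medians lay between -0.01 and 0.05. Of all tested genes, 49.4, 55 and 53.9% were above the control in the siWFDC21P-1 libraries and 47.1, 53.2 and 53.8% in the siWFDC21P-2 libraries. A log2 difference of at least 1 was reached by 12, 5 and 1 members with siWFDC21P-1 and by 0, 14 and 17 with siWFDC21P-2. Among all tested genes that share was 3.33, 3.03 and 2.02%, then 0.576, 5.18 and 4.78%.

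**Figure D2:**
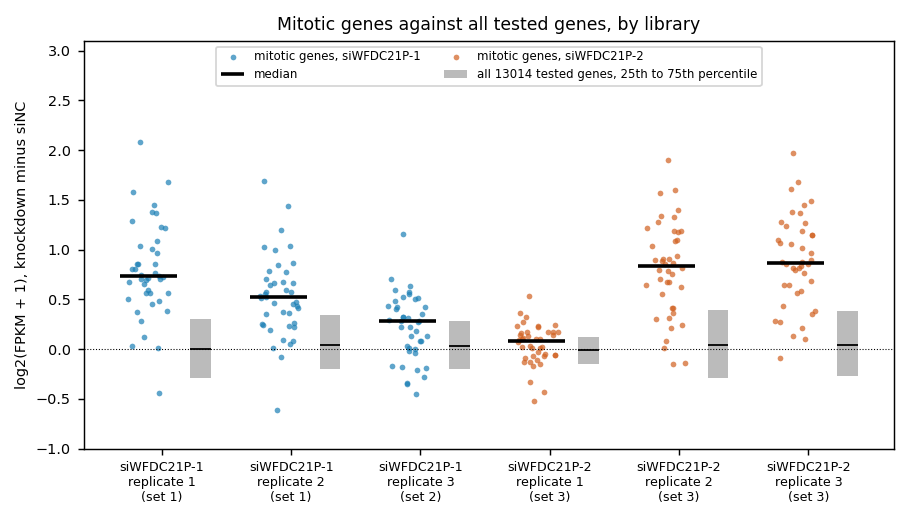
Difference in log2(FPKM + 1) between each knockdown library and the siNC library of its set (vertical axis), with 1 point per mitotic gene, black lines for medians and grey bars for the 25th to 75th percentile of all 13014 tested genes. The medians of the mitotic genes are 0.73, 0.52 and 0.28 under siWFDC21P-1 and 0.08, 0.83 and 0.86 for siWFDC21P-2, while those of all genes stay near 0.

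All 3 siWFDC21P-1 libraries were above their control for 30 members (27.9% of all tested genes) and below it for 1, BUB3 (20.7% of all tested genes). All 3 siWFDC21P-2 libraries were above for 25 (26.9% of all tested genes) and below for 0 (26% of all). All 6 were above for 20 members (10.8% of all tested genes) and below for 0 (7.92% of all). Without set 2 the siWFDC21P-1 count was 40 of 42 (39.3% of all tested genes), and 25 members were above in all 5 remaining knockdown libraries (14% of all). Without siWFDC21P-2 replicate 1 the siWFDC21P-2 count was 39 (46.2% of all). With neither, 37 of 42 were above in all 4 remaining libraries (21.8% of all). The libraries of a set share 1 control, so a low value there raises all of them at once.

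No member passed the test across all genes. The fit was limma on log2(FPKM + 1) with group and set as terms, at a Benjamini-Hochberg adjusted p of at most 0.05. For siWFDC21P-1, 0 of 42 members passed and 0.0231% of all tested genes did, namely CDKN1A on the lower side and GANAB and RPL26L1 on the higher, none of which passed without set 2. For siWFDC21P-2, 0 members and 0% of all tested genes passed. At an unadjusted p under 0.05 the members numbered 8 for siWFDC21P-1, all higher (8.69% of all tested genes were higher at that level), and 1 for siWFDC21P-2 (2.89% of all). With both siRNAs pooled, 0 members passed the adjusted threshold (0.00768% of all tested genes, GANAB alone), and 20 had an unadjusted p under 0.05, all higher (9.16% of all). The median fitted log2 change of the members was 0.44 for siWFDC21P-1, 0.60 for siWFDC21P-2 and 0.51 for both, against 0.03, 0.02 and 0.03 over all tested genes. With the 2 libraries of set 2 left out, the medians were 0.62, 0.60 and 0.61. In those fits 0 members passed, beside 0.0154% of all tested genes for siWFDC21P-1 and 0% in the other fits. At an unadjusted p under 0.05 they gave 10 members for siWFDC21P-1, all higher (6.43% of all tested genes were higher). The counts were 0 for siWFDC21P-2 (2.17% of all) and 17 for both, all higher (6% of all). The labels do not say whether replicates were separate cultures, so the p-values measure only the spread between these libraries. With 1 control in each set, that spread holds none between controls of the same background.

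**Figure D3:**
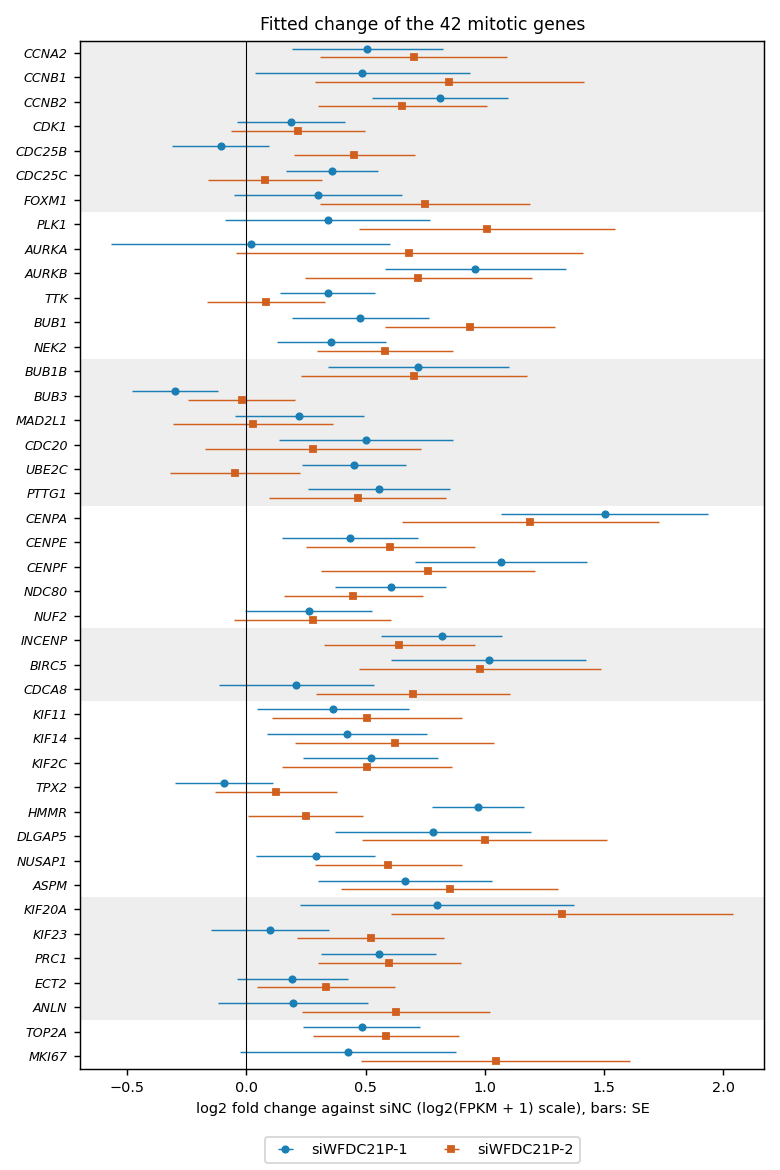
Fitted log2 fold change against siNC of each mitotic gene (horizontal axis, log2(FPKM + 1) scale) for siWFDC21P-1 (circles) and siWFDC21P-2 (squares), with bars for the standard error. 39 and 40 of the 42 points lie above 0, beside 7001 and 6890 of all 13014 tested genes. None of the 42 passed the adjusted threshold.

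One library decided whether mitotic genes passed for siWFDC21P-2. In the mitotic genes replicate 1 lay near its control. Without that library 13 members passed, all higher, beside 4.32% of all tested genes called higher and 2.61% called lower (limma, Benjamini-Hochberg). These were ANLN, ASPM, BUB1, BUB1B, CCNB1, CENPA, CENPE, FOXM1, KIF14, KIF20A, MKI67, PLK1 and PRC1. Their fitted log2 changes in that fit ran from 0.82 ± 0.18 (SE) for PRC1 to 1.94 ± 0.36 for KIF20A, with adjusted p of 0.0499 and 0.0339 (limma). In the same fit CENPA was the only member to pass for siWFDC21P-1, beside 0.93% of all tested genes called higher (1.5 ± 0.24, adjusted p = 0.0493, limma). For both siRNAs pooled ASPM, BUB1B, CCNB2, CENPA, CENPF and INCENP passed, 6 of 42 beside 1.26% of all tested genes called higher. At an unadjusted p under 0.05 the same fit gave 30 members for siWFDC21P-2 (16% of all tested genes were higher at that level) and 20 for siWFDC21P-1 (13.2% of all), all of them higher. Genes listed as markers of cell types also differed between these libraries. The summed level of 8 fibroblast markers came to 110.5 FPKM in siNC replicate 3, 158.6 in siWFDC21P-2 replicate 1, and 640.3 and 582.5 in replicates 2 and 3. Above the control were 7 of 8 in replicate 1 and 8 of 8 in replicates 2 and 3. The collagen genes COL3A1 and COL1A2 were at 5.75 and 56.2 FPKM in the control and at 23.0 and 80.2 in replicate 1. In replicates 2 and 3 COL3A1 was at 241.8 and 221.5 and COL1A2 at 272 and 224. THY1 was at 90.3 and 109.99 against 43.6, and LUM at 3.75 and 3.89 against 0.388. PDGFRB was at most 0.0921 FPKM in set 3 and DCN, a fibroblast proteoglycan, at most 0.0181. Both are among the 8 counted above the control in replicates 2 and 3. The sum of the 5 mesenchymal markers went the other way, at 368 FPKM in siNC replicate 3 and 365, 214 and 229 in siWFDC21P-2 replicates 1 to 3. VIM was at 310, 309, 162 and 178 FPKM in the same order, and ZEB1 at 33.1, 32.04, 19.6 and 19.4. The markers were split, with 2, 2 and 3 of the 5 above the control in siWFDC21P-2 replicates 1 to 3. FN1 rose from 4.56 FPKM in the control to 5.70, 7.29 and 9.13, and SNAI2 from 2.07 to 2.09, 10.4 and 4.62. CDH2 was at 15.9, 14.7 and 18.1 against 17.7. The 3 leukocyte markers in the tables summed to 1.21 FPKM in siNC replicate 3 and to 2.03, 7.13 and 8.86 with siWFDC21P-2. Most of each sum was CD14 alone, at 1.11, 1.98, 6.97 and 8.70 in the same order. PTPRC was at 0.160 or less in every library, and LYZ at 0.0339 or less in set 3. In set 1 the 8 epithelial markers summed to 387 FPKM in siNC replicate 1 and to 176 and 199 with siWFDC21P-1, and in set 2 to 1688 and 1084. In each siWFDC21P-1 library 3 of the 8 were above the control. In set 1 KRT8 went from 232 to 93.4 and 112 FPKM and KRT18 from 151 to 80.4 and 83.1. In set 2 KRT19 went from 925 to 474 and KRT8 from 293 to 135, while EPCAM went from 209 to 228 and CDH1 from 42.7 to 59.6. The part of these markers in the mitotic difference was not tested.

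Genes of mitotic entry were described first by their cyclins. CCNB2 was at 10.4, 33.5 and 13.6 FPKM in siNC replicates 1 to 3, at 25.7, 21.7 and 44.7 with siWFDC21P-1 and at 15.4, 26.2 and 26.1 with siWFDC21P-2. It was above the control of its set in all 6 libraries, with a fitted log2 change of 0.81 ± 0.28 under siWFDC21P-1 and 0.65 ± 0.35 under siWFDC21P-2, ± SE as throughout (adjusted p = 0.276 and 0.756, limma). CCNB1 was at 56.9, 107 and 53.0 FPKM in the controls, at 103.9, 85.2 and 122 with siWFDC21P-1 and at 48.5, 121.6 and 151 with siWFDC21P-2. Its replicate 1 of siWFDC21P-2 lay under the control and replicates 2 and 3 lay 2.30 and 2.85 times above it. CCNA2, the cyclin of S phase and G2, was above its control in all 6 libraries, from 0.10 to 1.10 on the log2 scale. FOXM1, the transcription factor that activates many of these genes, was at 20.0, 24.9 and 11.5 FPKM in the controls, at 30.7, 27.8 and 24.9 with siWFDC21P-1, and at 11.6, 25.6 and 26.6 with siWFDC21P-2. In set 2 and in siWFDC21P-2 replicate 1 FOXM1 was level with its control, and elsewhere it was higher. CDK1, the kinase of mitotic entry, had fitted changes of 0.19 ± 0.23 and 0.22 ± 0.28. The phosphatases differed in their pattern. CDC25B was lower in set 2 (30.1 against 41.4 FPKM) and higher in all of siWFDC21P-2 (110.6, 112 and 91.9 against 76.0). CDC25C had the lowest level of any member, 1.45 FPKM, in siNC replicate 1.

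The mitotic kinases had a median fitted log2 change of 0.52 with both siRNAs pooled. PLK1, the Polo kinase, was at 12.6, 43.9 and 15.1 FPKM in siNC, at 22.7, 20.6 and 38.6 with siWFDC21P-1 and at 16.8, 38.04 and 48.3 with siWFDC21P-2. It was higher in set 1 and set 3 and lower in set 2, and without siNC replicate 1, which leaves set 2 alone to give the siWFDC21P-1 change, that change was -0.18. Without set 2 the siWFDC21P-1 change of PLK1 was 0.73. AURKB, the kinase of the chromosomal passenger complex, was at 11.7, 22.4 and 9.17 FPKM in siNC, at 37.0, 24.9 and 32.1 with siWFDC21P-1 and at 9.29, 20.7 and 20.2 with siWFDC21P-2. Its 6 knockdown libraries were all above their control, by 0.96 ± 0.38 for siWFDC21P-1 and 0.72 ± 0.47 for siWFDC21P-2 in the fit. BUB1, which recruits checkpoint proteins to kinetochores, was at 20.9, 24.1 and 8.54 FPKM in siNC, at 31.3, 33.2 and 30.1 with siWFDC21P-1 and at 11.2, 20.5 and 22.2 with siWFDC21P-2. BUB1 was the 1 member with an unadjusted p under 0.05 for siWFDC21P-2 (0.94 ± 0.36, adjusted p = 0.756, limma). NEK2, a centrosome kinase, was above its control in all 6 libraries. AURKA, the spindle pole kinase, was not, since it was at 25.4 against 39.4 FPKM in siWFDC21P-1 replicate 2 and at 13.7 against 20.1 in siWFDC21P-2 replicate 1. TTK, a checkpoint kinase, had fitted changes of 0.34 ± 0.20 and 0.08 ± 0.25.

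Genes of the spindle checkpoint and the anaphase promoting complex gave the smallest pooled median of the 8 role groups (0.34), and 0 of the 6 were above the control in siWFDC21P-2 replicate 1. BUB1B, the BUBR1 checkpoint protein, was at 7.01, 23.5 and 9.65 FPKM in siNC, at 15.1, 12.8 and 33.3 with siWFDC21P-1 and at 8.85, 20.8 and 23.2 with siWFDC21P-2. CDC20 was at 42.7, 159 and 71.7 FPKM in siNC, at 88.8, 68.8 and 163 with siWFDC21P-1 and at 56.8, 89.3 and 130.3 with siWFDC21P-2. BUB1B was 2.16-fold and 1.82-fold its control in set 1, while CDC20 was level with its control in set 2 and ran from 56.8 to 130.3 FPKM among the siWFDC21P-2 libraries. PTTG1, the separase inhibitor securin, was at 32.1, 103 and 38.3 FPKM in siNC, at 63.5, 47.5 and 126 with siWFDC21P-1 and at 36.6, 60.5 and 68.3 with siWFDC21P-2. BUB3, a partner of BUB1 and BUBR1, was the 1 member below the control in all 3 siWFDC21P-1 libraries (21.9 and 28.3 against 30.0 FPKM, and 21.3 against 27.5), with a fitted change of -0.30 ± 0.18 (adjusted p = 0.506, limma). MAD2L1, which inhibits CDC20, and UBE2C, the ubiquitin-conjugating enzyme of the complex, had fitted changes of 0.22 ± 0.27 and 0.45 ± 0.22 for siWFDC21P-1 and of 0.03 ± 0.34 and -0.05 ± 0.27 for siWFDC21P-2.

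Centromere and kinetochore genes held the member with the largest fitted change for siWFDC21P-1 and for both siRNAs pooled. CENPA, the histone H3 variant that marks centromeres, was at 4.03, 21.4 and 5.26 FPKM in siNC, at 20.3, 12.6 and 49.0 with siWFDC21P-1 and at 6.81, 17.5 and 19.1 with siWFDC21P-2. It was above its control in all 6 libraries, 1.30-fold in siWFDC21P-2 replicate 1 and 2.29-fold to 5.04-fold in the other 5. Its fitted log2 change was 1.5 ± 0.43 with siWFDC21P-1, 1.19 ± 0.54 with siWFDC21P-2 and 1.38 ± 0.32 with both (adjusted p = 0.220, 0.756 and 0.181, limma). CENPF was at 14.4, 32.4 and 14.7 FPKM in siNC, at 48.2, 34.2 and 48.8 with siWFDC21P-1 and at 16.1, 34.8 and 29.6 with siWFDC21P-2, all above the control. NDC80, the microtubule-binding subunit of the outer kinetochore, was at 6.28, 32.1 and 13.9 FPKM in siNC, at 11.2, 9.10 and 49.0 with siWFDC21P-1 and at 14.2, 22.7 and 22.2 with siWFDC21P-2. The control of set 2 thus had more NDC80 than both set 1 knockdown libraries. NUF2, its partner in the same complex, was lower in set 2 (28.8 against 33.5 FPKM). CENPE, a kinetochore motor, was above its control in all 6 libraries.

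The chromosomal passenger complex, which corrects faulty attachments and then moves to the midzone, had the largest pooled median of the role groups (0.75 over 3 genes). BIRC5 (survivin) was at 12.2, 34.7 and 10.9 FPKM in siNC, at 33.4, 41.6 and 43.6 with siWFDC21P-1 and at 13.2, 28.9 and 29.9 with siWFDC21P-2. INCENP, the scaffold, was at 14.8, 30.9 and 12.6 FPKM in siNC, at 35.7, 27.8 and 44.9 with siWFDC21P-1 and at 15.0, 22.9 and 24.1 with siWFDC21P-2. Both were above the control in all 6 libraries, with pooled changes of 1.00 ± 0.30 and 0.75 ± 0.19 (adjusted p = 0.232 and 0.196, limma). CDCA8 (borealin) was at 14.8, 71.9 and 20.8 FPKM in siNC, at 24.99, 20.4 and 59.2 with siWFDC21P-1 and at 23.4, 36.7 and 47.4 with siWFDC21P-2. CDCA8 was therefore lower than its control in set 2 and higher in the other 5 libraries. Its fitted siWFDC21P-1 change went from 0.21 to -0.28 without siNC replicate 1 and to 0.57 without set 2.

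**Figure D4:**
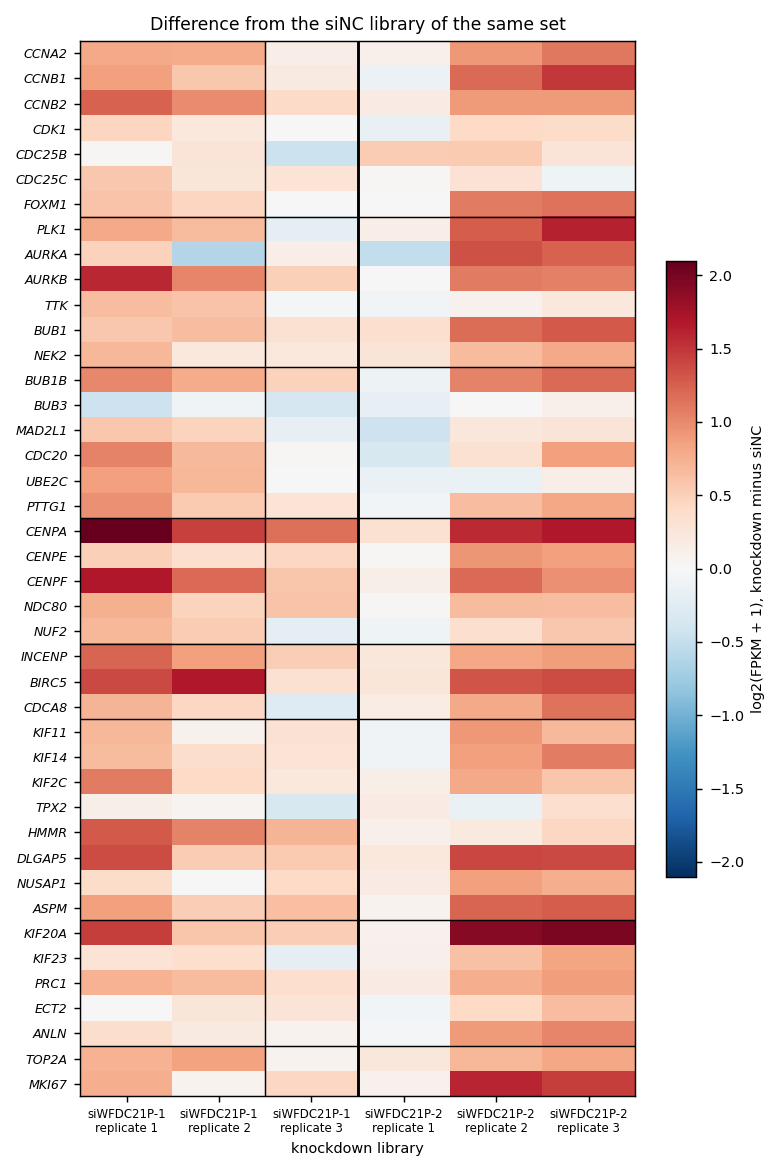
Difference in log2(FPKM + 1) from the siNC library of the same set for each mitotic gene (vertical axis, black lines between role groups) in the 6 knockdown libraries (horizontal axis), red for higher and blue for lower. CENPA (2.08 in siWFDC21P-1 replicate 1) and KIF20A (1.97 in siWFDC21P-2 replicate 3) are the darkest red, and the column of siWFDC21P-2 replicate 1 is the palest.

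Among the spindle motors and spindle assembly factors, HMMR had the smallest adjusted p of any member for siWFDC21P-1. HMMR, a spindle-associated hyaluronan receptor, was at 5.09, 18.8 and 31.9 FPKM in siNC, at 13.9, 11.5 and 31.4 with siWFDC21P-1 and at 34.3, 37.1 and 43.4 with siWFDC21P-2. Its fitted log2 change was 0.97 ± 0.19 (adjusted p = 0.114, limma) for siWFDC21P-1 and 0.25 ± 0.24 for siWFDC21P-2. DLGAP5, which stabilizes spindle microtubules, was at 9.75, 31.7 and 13.5 FPKM in siNC, at 26.8, 14.6 and 47.1 with siWFDC21P-1 and at 15.9, 37.3 and 36.9 with siWFDC21P-2. ASPM, a spindle pole protein, was at 14.9, 16.8 and 13.1 FPKM in siNC, at 27.8, 21.7 and 26.7 with siWFDC21P-1 and at 13.8, 31.97 and 33.2 with siWFDC21P-2. These 3 genes were above the control in all 6 libraries, and ASPM was the one whose controls differed least between the backgrounds. KIF2C, a microtubule depolymerase, and NUSAP1, a microtubule bundler, were also above in all 6, while the motors KIF11 and KIF14 fell short only in siWFDC21P-2 replicate 1. TPX2, an activator of AURKA, had fitted changes of -0.09 ± 0.20 and 0.13 ± 0.25.

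Genes of the central spindle and cytokinesis had a pooled median of 0.37, with a wide range. KIF20A, the mitotic kinesin MKLP2, was at 16.8, 51.4 and 14.3 FPKM in siNC, at 47.6, 25.5 and 73.6 with siWFDC21P-1 and at 15.4, 56.4 and 59.0 with siWFDC21P-2. It had the largest fitted change of any member for siWFDC21P-2 (1.32 ± 0.72, adjusted p = 0.756, limma). Its siWFDC21P-2 replicate 1 lay 1.07-fold above the control and replicates 2 and 3 lay 3.94-fold and 4.12-fold above it. PRC1, a bundler of antiparallel microtubules, was at 14.8, 21.3 and 13.9 FPKM in siNC, at 25.3, 24.0 and 27.5 with siWFDC21P-1 and at 15.8, 24.3 and 26.3 with siWFDC21P-2. ANLN, the anillin scaffold of the contractile ring, was at 27.6, 80.0 and 50.2 FPKM in siNC, at 36.1, 31.7 and 84.6 with siWFDC21P-1 and at 49.3, 94.0 and 102.9 with siWFDC21P-2. PRC1 was above its control in all 6 libraries and ANLN in 5. KIF23, a kinesin of the central spindle, was lower in set 2 (23.0 against 26.5 FPKM), and ECT2, an exchange factor for RhoA, was lower in siWFDC21P-2 replicate 1 (26.4 against 27.5).

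TOP2A, the topoisomerase that untangles chromosomes, was at 35.8, 102 and 38.4 FPKM in siNC, at 59.9, 65.3 and 107.7 with siWFDC21P-1 and at 45.3, 63.2 and 68.4 with siWFDC21P-2. MKI67, which encodes the proliferation marker Ki-67, was at 16.1, 43.3 and 6.01 FPKM in siNC, at 28.0, 17.1 and 58.6 with siWFDC21P-1 and at 6.46, 20.3 and 18.1 with siWFDC21P-2. Both were above their control in all 6 libraries. MKI67 was 3.37-fold and 3.01-fold above it in siWFDC21P-2 replicates 2 and 3, and its set 3 libraries were all below the control of set 2.

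The difference between the siRNAs was tested in the same fit, and 0 of the 42 members passed (0% of all tested genes). The median of siWFDC21P-1 minus siWFDC21P-2 over the members was -0.14, from -0.67 for PLK1 to 0.72 for HMMR. HMMR was the 1 member with an unadjusted p under 0.05 (95% interval 0.00101 to 1.44, adjusted p = 0.830, limma), beside 5.4% of all tested genes. For most members the intervals were wide, such as -1.60 to 0.74 for ANLN, so that these libraries do not show whether the siRNAs act alike. Without siWFDC21P-2 replicate 1 no member passed either, beside 1.4% of all tested genes, and the median was -0.35. In that fit 9 members had an unadjusted p under 0.05, all with a smaller change under siWFDC21P-1 (10.8% of all tested genes were lower at that level), namely ANLN, ASPM, AURKA, BUB1, CCNB1, FOXM1, KIF20A, MKI67 and PLK1.

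A further 131 genes of mitosis outside the 42 were followed as the rest of the pathway, and 129 were tested. Their pooled median change was 0.23, 24 had an unadjusted p under 0.05 on the higher side (9.16% of all tested genes) and 2 on the lower (5.22% of all), and 0 passed with adjustment (limma). All 6 knockdown libraries were above the control for 27 (10.8% of all) and below it for 4 (7.92% of all). By siRNA, all 3 siWFDC21P-1 libraries were above for 67 (27.9% of all) and below for 7 (20.7% of all). All 3 siWFDC21P-2 libraries were above for 37 (26.9% of all) and below for 22 (26% of all). In siWFDC21P-2 replicate 1, 43 of the 129 were above (47.1% of all), with a median difference of -0.08. Other cytokinesis genes (pooled median 0.54 over 7) and other spindle motors and microtubule factors (0.33 over 17) had the larger medians. Centriole duplication genes (0.03 over 7) and the genes of the MuvB, DREAM and B-MYB list (0.07 over 12) had the smallest, followed by subunits of the anaphase promoting complex (0.15 over 16). ZW10, which brings dynein to kinetochores, was at 4.22, 7.41 and 8.96 FPKM in siNC, at 10.2, 8.31 and 17.1 with siWFDC21P-1 and at 16.7, 16.3 and 14.4 with siWFDC21P-2, and its pooled change was 0.92 ± 0.13 (adjusted p = 0.0969, limma). The condensin subunit NCAPD2 had 0.82 ± 0.22, ENSA, an inhibitor of the phosphatase that opposes CDK1, had 0.88 ± 0.19, and the kinesin KIF4A had 0.74 ± 0.26. CENPQ, a subunit of the inner kinetochore, went the other way (-1.42 ± 0.52), and was below its control in all 6 libraries. In the DREAM and B-MYB list, 3 of the 12 tested genes had an unadjusted p under 0.05 on the higher side (9.16% of all tested genes) and 1 on the lower (5.22% of all).

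That 1 was CDKN1A, the p21 inhibitor of cyclin-dependent kinases and the only gene of either list to pass in the fit over all 9 libraries. It fell with siWFDC21P-1 by 2.42 ± 0.21 on the log2 scale (adjusted p = 0.0442, limma). Without set 2 the change was -2.41 ± 0.29 and the call was lost (adjusted p = 0.159, limma). Over 19 alternative fits its change ran from -2.49 to -1.18, its adjusted p from 0.0256 to 0.961 (limma), and it passed in 6. Its 324 FPKM in siNC replicate 1 stood against 65.8 and 54.6 with siWFDC21P-1 in that set, and 50.6 stood against 8.55 in set 2. With siWFDC21P-2 it was at 11.7, 7.52 and 10.1 against 23.8 (fitted change -1.23 ± 0.26, adjusted p = 0.756, limma). CDKN1A was below its control in 6 of 6 libraries. In siWFDC21P-2 replicate 1, where the mitotic genes had a median difference of 0.08, CDKN1A differed by -0.97.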

How the data were processed

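RNA was sequenced from 9 libraries in 3 groups of 3, by Illumina protocols from 1 µg of RNA, per the labels' protocols. The authors deposited 1 table per library with FPKM for each Ensembl identifier. The submitters' processing notes list the counter HTSeq 0.6.0, the aligners Bowtie2 2.2.3 and HISAT2 2.1.0 and the build hg38, while the role of each aligner, the annotation and the use of strand are not given in the sources used here. The tables came in 2 naming styles, 5 libraries with 34377 genes and 4 with 29104. The 4 are the libraries of set 3, so between the siRNAs the naming style also goes with the background. Exon lengths from GENCODE 29 gave the depths. With them, 95.1 to 96.1% of the low FPKM values of a library (below 50 reads) became whole reads within 0.02 reads. Counted at any level, reads were recovered as whole in every library for 24694 of the 26636 shared genes.

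Genes whose mean over the libraries reached 1 FPKM were tested as log2(FPKM + 1) with limma 3.58.1 in R 4.3.3, with trended empirical Bayes variances, group and expression set as terms, and Benjamini-Hochberg adjustment over every tested gene, called at 0.05. The set term leaves siNC replicate 3 as the single control of siWFDC21P-2. The sets came from average-linkage clustering on 1 minus Pearson r, split at 0.15, over 12822 genes outside the lists used here. The limma fit, but not the other steps, was tested on simulated data. Promoter motifs were counted in Python 3.11.15 with pandas 2.3.3. Alternatives were the naming style, no background term or a replicate block in place of the set, pseudocounts of 0.1 and 0.5, other filters, median-of-ratios scaling, limma-voom on the recovered reads, and each library left out. The fits without set 2 and the matching counts of genes above their control were added after the data had been seen.

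The members and all gene lists were chosen with earlier results of these data known, and the sets were already known from them. Values in every library are given for the members with the largest absolute fitted change for either siRNA in each of 8 role groups, up to 3 a group, and pathway genes were named by the smallest unadjusted p in the pooled fit, up to 2 a list. BUB3, AURKA, CDC25B and the others given with single values were picked to account for the list after their values were seen.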

Additional observations from a re-analysis of the deposited data

How the results depend on the processing

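Of 1511 recomputed values, 1442 kept their direction and their side of the threshold (or stayed within 1.5 times for counts), and the median change of the mitotic genes for each siRNA was above 0 under every alternative run. Leaving out 1 library at a time, the median ran from 0.28 to 0.62 for siWFDC21P-1, 0.47 to 0.83 for siWFDC21P-2, 0.44 to 0.61 for both and -0.35 to 0.03 for the difference. The number of all genes passing for siWFDC21P-1 (3) was 0 with the naming style, with no background term, with the replicate block, with a filter of 0.1 FPKM and with no filter, 1 with limma-voom, and 0 to 153 when leaving out libraries. For both siRNAs (1) it was 0 in the same 5 settings, with median-of-ratios scaling, with limma-voom and without set 2, 2 with a pseudocount of 0.1, and 0 to 204 when leaving out libraries. For siWFDC21P-2 (0) it was 3 with the filter of 0.1 FPKM, 17 with no filter and 0 to 902 when leaving out libraries, and for the difference (0) it was 7 with no filter and 0 to 182. Members passing numbered 0 to 1, 0 to 13 and 0 to 6 for siWFDC21P-1, siWFDC21P-2 and both when leaving out libraries, and members above siNC in all siWFDC21P-2 libraries went from 25 to 39 without replicate 1. The highest count in each of these ranges came from the fit without siWFDC21P-2 replicate 1. The cause was not tested. The replicate numbers do not pair the libraries (9 same-numbered pairs, r from -0.683 to 0.667). With the replicate block, the member medians were 0.44, 0.25 and 0.34 and that of the difference 0.19, the same as with no background term (0.19). Directions turned for CDCA8 (-0.0765) and ANLN (-0.0342) with siWFDC21P-1 and the naming style, and for ANLN with siWFDC21P-1 (-0.0645) and MKI67 with siWFDC21P-2 (-0.27) with no background term and with the replicate block. Leaving out libraries, the siWFDC21P-1 change ran from -0.00012 to 0.52 for FOXM1, -0.18 to 0.73 for PLK1 and -0.28 to 0.57 for CDCA8 (lowest without siNC replicate 1), and the siWFDC21P-2 change of CDC20 from -0.00918 to 0.58 (lowest without siWFDC21P-2 replicate 3). The siWFDC21P-2 change and the difference could not be fitted without siNC replicate 3. Fewer reads in set 3 and 1 control a set limit all values.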
